A study of Mus musculus with 2 samples.

Results

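The genes described here are the mouse chaperones and heat shock genes, the proteins that fold other proteins, refold damaged ones and pass hopeless ones on for destruction. Members were the protein-coding genes whose symbol begins with Hsp and a family letter or digit, Dnaja, Dnajb or Dnajc with a number, or Cct with a number from 2 to 8, or is one of the heat shock factors Hsf1 to Hsf5, Tcp1, Bag1, Bag3, Stip1 or Stub1. Dnajc6 and the proteoglycan gene Hspg2 were left out by that rule. It gave 90 members among 21474 protein-coding genes and 43346 gene rows.

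They were measured in whole midbrain of newborn mice of strain B6NTac;B6NCrl/Lap, aged 0 days, with males and females pooled. There was 1 group of 2 libraries made from independent isolates, replicate 1 from a pool of 15 animals and replicate 2 from a pool whose size the labels do not give. RNA longer than 200 nucleotides was depleted of ribosomal RNA and sequenced as stranded read pairs, so transcripts without a poly(A) tail were kept. With no second condition, nothing was contrasted between groups, and values are given for each library. No p-value was computed.

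Replicate 1 held 46685706 counts and replicate 2 held 72779229, of which 349362 and 506148 fell on members. At these depths a gene with no count could still hold up to 3 by sampling alone, or 0.0643 and 0.0412 CPM (the count over the library total, rescaled), a limit that covers counting error only. Levels are in TPM, the transcript abundance scale (a count divided by transcript length and rescaled to the same total in each library). All protein-coding genes together held 223525 TPM in replicate 1 and 197718 in replicate 2, so TPM values run lower in replicate 2 for many genes. All 6 midbrain markers and all 6 neuron markers were detected. Choroid plexus markers differed between the isolates, with 4 of 6 past 2-fold higher in replicate 2. Their summed levels were 17.9 and 170 TPM, of which Ttr alone held 14.4 and 163.

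Chaperones work in relays. Hsp70 proteins grip exposed stretches of unfolded protein, J proteins deliver clients and trigger ATP hydrolysis, and exchange factors reset the cycle. Hsp90 proteins finish signalling proteins such as kinases and steroid receptors, while barrel-shaped chaperonins enclose a client, with TRiC in the cytosol folding actin and tubulin and Hsp60 in mitochondria. Heat shock factors bind repeats of the sequence GAA in promoters when damaged protein accumulates, and the endoplasmic reticulum has its own chaperones under a separate stress response. Neurons rely on these systems at the synapse, where the J protein of synaptic vesicles works with Hsc70.

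The promoters of a few members are shown first. Some carry the sequence by which heat shock factors are known to act, and those of Hspa1a and Hspa1b are nearly identical. RefSeq promoter windows, from 250 bases before to 50 after the annotated start on GRCm38.p6 (mm10), were found for 73 of the 90 members. The 13-base element, which is TTC, GAA and TTC with any 2 bases between each, or GAA, TTC and GAA likewise on the other strand, lay in the windows of 4 members, Hspd1, Hspe1, Hsph1 and Dnajb6. That is 5.48% of the matched members, where 0.662% of all 27025 genes with a window held it. Hspd1 and Hspe1 are counted separately there although they hold the same site. The 27025 genes, also the background for the elements below, were not limited to protein-coding ones as the members were. A match describes letters only and does not show binding. Capitals mark the element in the lines below.
Hspe1: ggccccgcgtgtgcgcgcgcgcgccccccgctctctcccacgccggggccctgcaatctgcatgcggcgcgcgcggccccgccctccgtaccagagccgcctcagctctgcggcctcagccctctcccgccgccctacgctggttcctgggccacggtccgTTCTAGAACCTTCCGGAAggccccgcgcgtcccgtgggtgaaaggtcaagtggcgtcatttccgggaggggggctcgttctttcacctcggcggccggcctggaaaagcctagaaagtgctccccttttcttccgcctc
Hspd1: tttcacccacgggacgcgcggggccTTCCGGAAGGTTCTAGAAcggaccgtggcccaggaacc
Dnajb6: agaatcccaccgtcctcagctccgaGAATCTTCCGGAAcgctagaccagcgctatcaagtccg
Hsph1: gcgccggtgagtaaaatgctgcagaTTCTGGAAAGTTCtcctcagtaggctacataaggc

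The first line is the whole 300-base window of Hspe1, the mitochondrial co-chaperonin Hsp10, at chr1:55087898-55088197 on the plus strand. The second is a stretch of 63 bases upstream of a RefSeq start of Hspd1, the Hsp60 barrel, at chr1:55088039-55088101 on the minus strand. Those genes stand head to head on chromosome 1, and their GENCODE annotations overlap by 112 bases, with the longest Hspd1 annotation reaching past this stretch. The capitals in both lines are the same site, from position 55088059 to 55088076, read from opposite strands. It holds 2 overlapping matches. The third stretch lies at chr5:29735827-29735889 on the plus strand, and the fourth at chr5:149636266-149636325 on the minus strand. The Dnajb6 match lies before a RefSeq start and the Hsph1 match lies after one. Both matches fall inside the GENCODE annotation of their gene.

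The looser 8-base form, TTCNNGAA or GAANNTTC, is contained in the longer one. It lay in 22 of the 73 member windows (30.1%), where 17.0% of all genes held it. Of the 7 members listed as strongly heat-inducible, 6 had a window and 5 of these held the 8-base form, namely Bag3, Hspa1a, Hspa1b, Hspb1 and Hsph1.

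A different element, CCAAT and CCACG with any 9 bases between them, is the letter pattern of endoplasmic reticulum stress promoters. On either strand it lay in 3 member windows, those of Hspa5, Hsp90b1 and Dnajc3, and all 3 are among the 8 members of the endoplasmic reticulum list with a window. Of all genes with a window, 0.137% held it. The window of Hspa5, which encodes the reticulum's Hsp70 (BiP), lies at chr2:34771840-34772139 on the plus strand and holds the element 65 bases before the start.
Hspa5: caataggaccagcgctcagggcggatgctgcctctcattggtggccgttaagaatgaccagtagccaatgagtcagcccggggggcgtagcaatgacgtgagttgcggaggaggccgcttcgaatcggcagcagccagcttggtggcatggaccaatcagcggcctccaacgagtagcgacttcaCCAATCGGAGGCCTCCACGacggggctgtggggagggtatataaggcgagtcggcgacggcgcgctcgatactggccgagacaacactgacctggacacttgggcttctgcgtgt

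Hspa1a and Hspa1b, the stress-inducible Hsp70 genes, have promoter windows that differ at 4 of 300 bases, in capitals here. Their windows lie on the minus strand of chromosome 17 at chr17:34972107-34972406 and chr17:34959189-34959488.
Hspa1a: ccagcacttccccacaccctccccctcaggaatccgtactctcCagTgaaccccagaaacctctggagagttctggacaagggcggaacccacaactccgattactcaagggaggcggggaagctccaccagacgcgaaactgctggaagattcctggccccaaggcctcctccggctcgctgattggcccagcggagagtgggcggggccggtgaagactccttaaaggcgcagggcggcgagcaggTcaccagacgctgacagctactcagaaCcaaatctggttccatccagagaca
Hspa1b: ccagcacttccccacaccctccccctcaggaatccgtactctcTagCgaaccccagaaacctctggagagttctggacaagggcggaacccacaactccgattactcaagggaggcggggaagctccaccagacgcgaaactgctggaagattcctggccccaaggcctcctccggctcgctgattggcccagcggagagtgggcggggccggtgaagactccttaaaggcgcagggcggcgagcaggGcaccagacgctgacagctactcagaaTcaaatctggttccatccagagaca
Their genes lie 9951 bases apart, with Hspa1l a further 546 bases beyond Hspa1a on the other strand.

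Chaperone genes were detected in the newborn midbrain more often than protein-coding genes in general, and a few of them made up most of the signal. Detected means at least 1 TPM in both libraries, which 68 of 90 members reached (75.6%, where 53.8% of all protein-coding genes did). At least 10 TPM in both was reached by 36 members (40%, background 18.4%). In both libraries 18 members stayed below 1 TPM (20%, background 43.0%). The remaining 4, Dnaja4, Dnajc21, Dnajc25 and Dnajc28, passed 1 TPM in replicate 1 only. Median levels over all members were 7.30 and 5.26 TPM, against 1.91 and 1.61 over all protein-coding genes. Among detected genes alone the medians were 12.9 and 10.7 TPM for members and 7.96 and 6.57 for all. In bulk tissue, fewer cells of a type and less RNA per cell cannot be told apart.

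Members were 0.419% of protein-coding genes and held 1.05% ± 0.0236 (SD, n = 2) of protein-coding TPM. Hspa8 alone held 34.1% ± 3.86 of the members' TPM, the 3 highest members 49.2% ± 3.11 and the 10 highest 67.8% ± 2.57. On protein-coding transcripts alone the Hspa8 share was 18.7% ± 0.392.

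**Figure D1:**
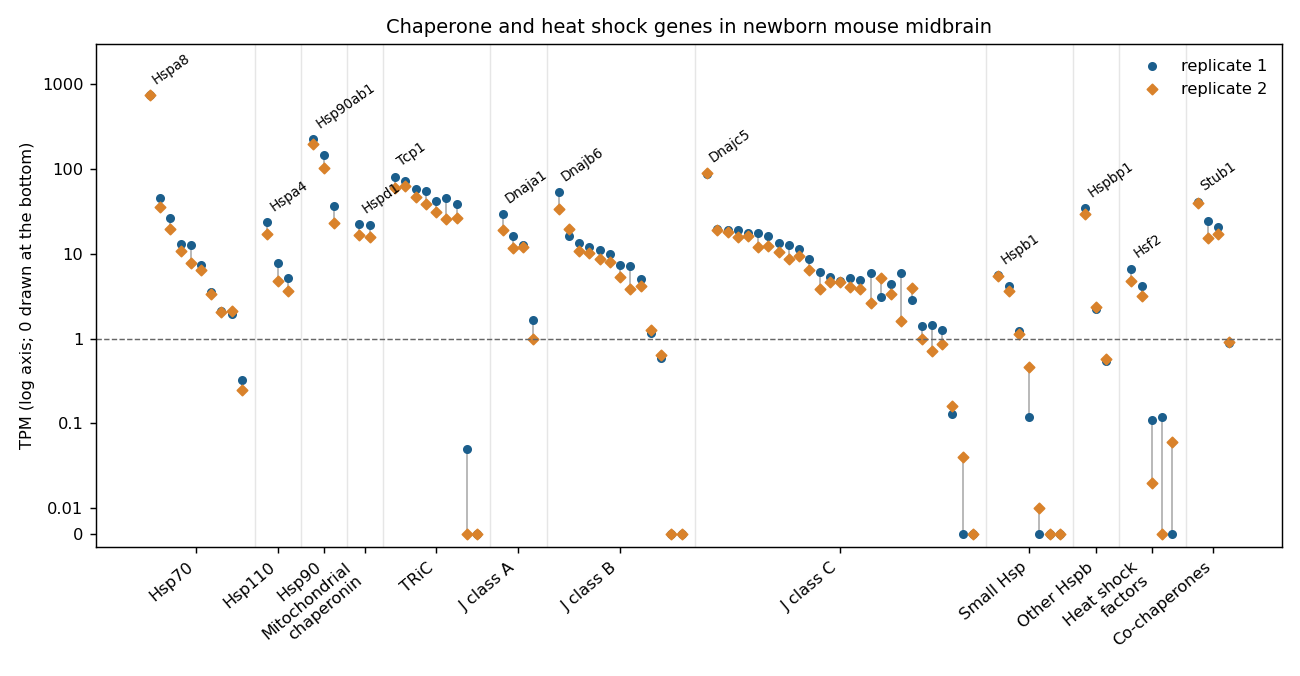
Each member's TPM in replicate 1 (circles) and replicate 2 (diamonds), ordered by mean within its family, on a log axis with 0 at the bottom and the detection level of 1 TPM dashed. The highest member of each family is labelled. Hspa8 stands at 749.7 and 754 TPM above all others, and small heat shock proteins and heat shock factors reach no more than 6.65 TPM in either library.

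Among the Hsp70 genes, Hspa8 (chr9:40800984-40810087, plus strand, mm10) encodes Hsc70, the constitutive Hsp70 of the cytosol. It stood at 749.7 TPM in replicate 1 and 754 in replicate 2 and ranked 16 among all protein-coding genes by mean level. Both libraries gave nearly the same total, but they split it differently among its transcripts.

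Only 45.7% of the Hspa8 level in replicate 1 and 34.2% in replicate 2 came from transcripts annotated as protein coding. Hspa8-201, the full coding transcript of 2394 bases, held 341 and 253 TPM. Hspa8-209, a processed transcript of 727 bases with no annotated reading frame, held 260 and 406 TPM, and so led in replicate 2. Hspa8-207, a retained-intron transcript of 1152 bases, held 136 and 84.3 TPM. By counts the coding transcript led in both libraries, with 55321 and 76030 against 8900 and 25708 for Hspa8-209. The short transcript's high TPM comes with its short length, by which its counts are divided.

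All 727 bases of Hspa8-209 lie within exons of Hspa8-201, so reads inside those exons fit both transcripts. Of Hspa8-207, 1037 of 1152 bases do. If every Hspa8 count belonged to Hspa8-201, the gene would stand at 457 and 380 TPM, which is 60.9% and 50.4% of the deposited values, and it would still be the highest member. That calculation was chosen after the data were seen. Of the distinct 101-base stretches, the length of a read, in its coding transcripts, 56.4% also occur in other annotated genes, chiefly the processed pseudogenes Gm15459 and Gm8355. Its 5 partners with a row in the tables held 1.101% and 1.229% of the counts they and Hspa8 had together. Introns of Hspa8 also hold 3 small nucleolar RNAs, Snord14c, Snord14d and Snord14e, each with 0 counts in both libraries. RNAs that short fall below the size the libraries kept.

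Hspa5, which folds secreted and membrane proteins as they enter the endoplasmic reticulum, stood at 45.7 and 35.6 TPM. Hspa9, mortalin, the Hsp70 of mitochondria, stood at 26.9 and 19.8 TPM. The reticulum Hsp70 exceeded the mitochondrial one in both libraries, but by less than 2-fold (log2 ratios 0.76 and 0.84).

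Hspa12a, a distant Hsp70 relative, stood at 13 and 10.8 TPM, and its paralog Hspa12b, best known from blood vessel endothelium, at 2.15 and 2.04 TPM. Hspa12a was the higher one by log2 ratios of 2.54 and 2.34. Hspa13, a microsomal Hsp70 relative, stood at 12.7 and 7.85 TPM and Hspa2, best known from male germ cells, at 1.95 and 2.10 TPM.

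The inducible Hsp70 genes were detected at levels far below that of Hspa8. By mean TPM, Hspa1a exceeded 72.0% of protein-coding genes and Hspa1b exceeded 59.0%. Hspa1a stood at 7.44 and 6.40 TPM and Hspa1b at 3.57 and 3.34 TPM. Hspa8 exceeded Hspa1a by log2 ratios of 6.64 and 6.86, and on protein-coding transcripts alone by 5.51 and 5.31. The Hspa1a to Hspa1b ratio, 1.04 and 0.92 on the log2 scale, passed 2-fold in replicate 1 only. Between these 2 genes 1344 of the 101-base stretches are shared, 46.9% of those of Hspa1a and 49.7% of those of Hspa1b, so how the counts were divided between them is uncertain. Hspa1l, their testis-biased neighbour, had 55 and 78 counts (0.33 and 0.25 TPM).

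Hsp110 proteins are large Hsp70 relatives that act as exchange factors and help to pull aggregates apart. Hspa4 led them with 23.8 and 17.2 TPM, followed by Hsph1 with 7.73 and 4.78 and Hspa4l with 5.18 and 3.66. Hspa4 exceeded both of the others in both libraries, by log2 ratios of 1.61 and 1.82 over Hsph1 and 2.18 and 2.20 over Hspa4l. The leading Hspa4l transcript, 9479 bases long with 65.7% and 95.1% of the gene's TPM, had no entry in the newer annotation, so any value of Hspa4l on coding transcripts leaves out its main transcript.

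The cytosolic Hsp90 genes came next to Hspa8 in level, while Hsp90b1 ranked 16 among the members. Hsp90ab1, the constitutive cytosolic form, stood at 228 and 196 TPM and Hsp90aa1, the form that heat induces further, at 148 and 104 TPM. The constitutive form exceeded the inducible one in both libraries by less than 2-fold (log2 ratios 0.62 and 0.91). Hsp90b1, the reticulum form known as Grp94, stood at 36.9 and 23.01 TPM, near Hspa5 (Hspa5 over Hsp90b1, log2 0.31 and 0.63). Of the 101-base stretches of Hsp90aa1, 40.4% also occur in pseudogenes, which held 0.641% and 0.75% of the summed counts.

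Hspa8 exceeded Hsp90ab1 by log2 ratios of 1.72 and 1.94 on gene totals. On protein-coding transcripts alone the ratios were 0.62 and 0.45, from 342 and 258 TPM for Hspa8 and 222 and 189 for Hsp90ab1, so the 2-fold call was lost. With all counts of each gene placed on its main coding transcript they were 1.03 and 1.00. Hspa8 was the higher gene under all 3 readings, and the size of its lead depended on how reads were shared among its transcripts.

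**Figure D2:**
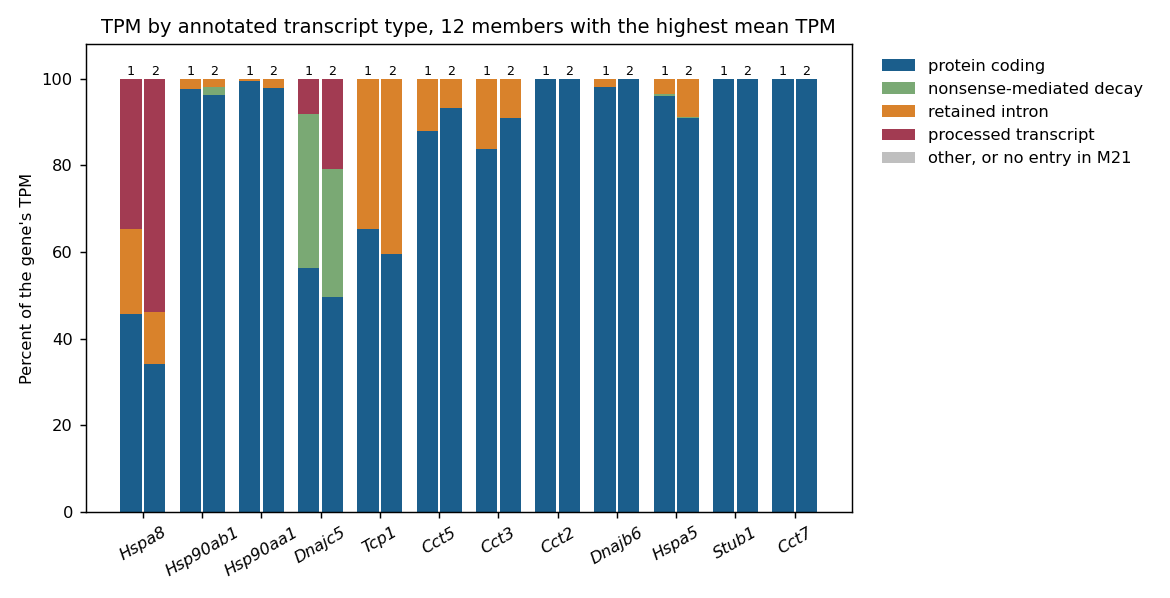
Percent of each gene's TPM by the annotated type of its transcripts, for the 12 members with the highest mean TPM, with replicate 1 as the left and replicate 2 as the right bar. Protein-coding transcripts hold 45.7% and 34.2% of Hspa8 and 56.2% and 49.6% of Dnajc5, and 100% of Cct2.

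Of the 39 members with a mean of at least 10 TPM, 5 had a leading transcript that held under 60% in both libraries or changed between them (12.8%, background 28.3%). They were Hspa8, Dnajc5, Tcp1, Bag1 and Dnajb5. The median member in this group took 97.0% and 96.7% of its TPM from protein-coding transcripts, against 97.1% and 97.8% over 4443 protein-coding genes at that level.

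Stip1 (Hop) links Hsp70 to Hsp90 and stood at 20.9 and 17.3 TPM. Stub1 (CHIP), a ubiquitin ligase that marks chaperone clients for destruction, stood at 41.0 and 39.6 TPM. Stub1 was the higher one (Stip1 over Stub1, log2 -0.97 and -1.19), past 2-fold in replicate 2 only.

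Bag1 and Bag3 encode exchange factors that steer Hsp70 clients to the proteasome and to autophagy. Bag1 stood at 24.4 and 15.4 TPM and Bag3 at 0.90 and 0.91 TPM, log2 ratios of 4.61 and 3.94. The 3 coding transcripts of Bag1 were used unequally, with Bag1-201 at 0 and 4.38 TPM. Hspbp1, which releases nucleotide from Hsp70, stood at 34.5 and 29.7 TPM. Hspb11, an intraflagellar transport subunit that carries an Hsp symbol, stood at 2.25 and 2.34 TPM and Hspbap1 at 0.54 and 0.57 TPM. The only Hspbap1 transcript quantified is annotated as a target of nonsense-mediated decay.

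**Figure D3:**
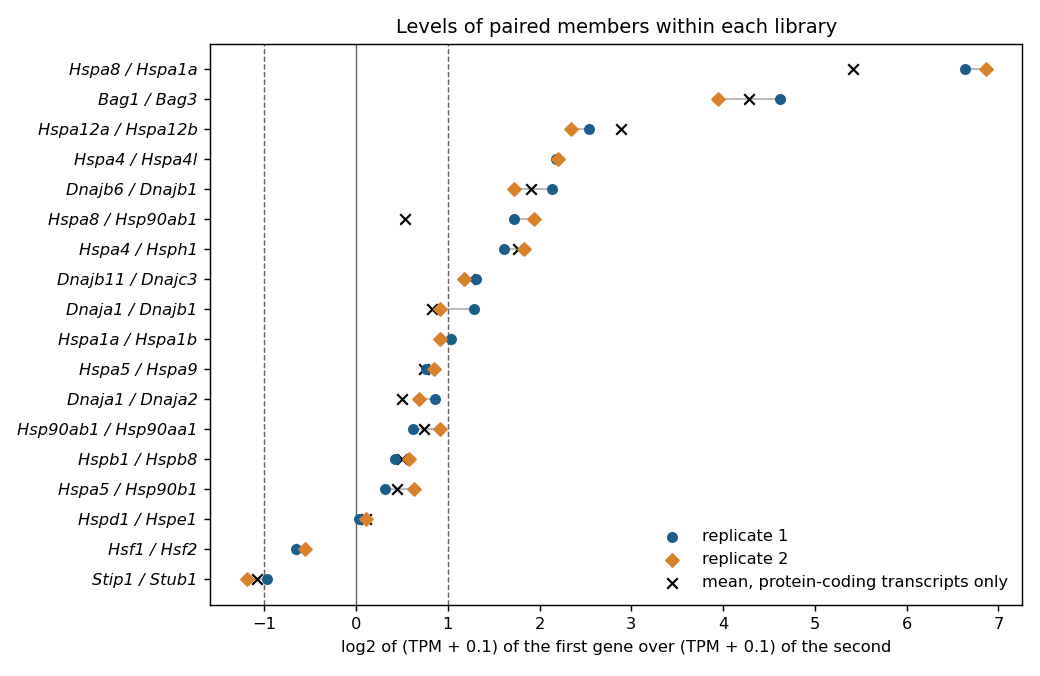
Log2 ratios of TPM + 0.1 within each library for 18 of the 20 pairs, with replicate 1 as circles, replicate 2 as diamonds, the mean over protein-coding transcripts as crosses and 2-fold dashed. No cross is drawn for Hspa4 / Hspa4l, whose second gene has a main transcript of unknown type. The cross of Hspa8 / Hsp90ab1, at 0.54, is the one that falls back across the dashed line from both points.

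In all, 20 pairs were compared within each library, and 10 passed 2-fold the same way in both. The first gene named was the higher one in all 10, but the order within pairs was set by hand, so that direction is no result. In one of them Dnajc5 had 26628 and 41960 counts where its testis-biased paralog Dnajc5b had 0 and 4. In another Cct6a had 3376 and 4123 counts where Cct6b had 6 and 0. Of the 20 pairs, the one closest to equal on gene totals was that of the mitochondrial chaperonin genes Hspd1 and Hspe1.

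Hspd1 stood at 22.3 and 17.0 TPM and Hspe1 at 21.9 and 15.7, a log2 ratio of 0.03 and 0.11. With all counts on its main coding transcript, Hspd1 would stand at 18.1 and 14.0 TPM. Hspe1 would then stand at 22.1 and 15.8, the higher of the pair. Hspd1 and Hspe1 share the promoter site shown above, and their proteins form the barrel and its lid. Any link between that site and their levels was not tested. Other mitochondrial members were detected as well, 8 of 8 with Hspa9 included. Dnaja3, the mitochondrial class A J protein, stood at 12.8 and 12.02 TPM, the import motor subunit Dnajc19 at 19.3 and 15.7, and Dnajc11, of the cristae-organizing complex, at 17.7 and 16.2.

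TRiC has 8 subunits in each ring, and the gene of 1 of them, Cct6a, is typed as a processed transcript in the annotation and so is no member. The other 7 were all among the 14 highest members. In replicate 1 they ran from Cct8 at 39.1 TPM to Tcp1 at 80.5, a spread of 2.06-fold. In replicate 2 they ran from Cct4 at 25.6 to Cct5 at 63.1, a spread of 2.47-fold.

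Cct3 stood at 58.1 and 46.4 TPM, Cct2 at 55.3 and 39.0, and Cct7 at 41.7 and 31.0. On gene totals Cct6a came below all 7 in both libraries, with 33.4 and 22.0 TPM. Its type leaves it no value on protein-coding transcripts, where Cct4 stood at 30.55 and 19.54 TPM, below the Cct6a total. Order among Cct4, Cct7 and Cct8 changed between the libraries, and the means of these 3 lay within 1 SD of each other. On protein-coding transcripts alone the spread over the 7 was 2.06-fold and 3.01-fold. Retained-intron transcripts held 34.6% and 40.5% of the Tcp1 level. Cct6b, the testis form of Cct6a, had 6 and 0 counts, and Cct8l1 had none in either library.

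**Figure D4:**
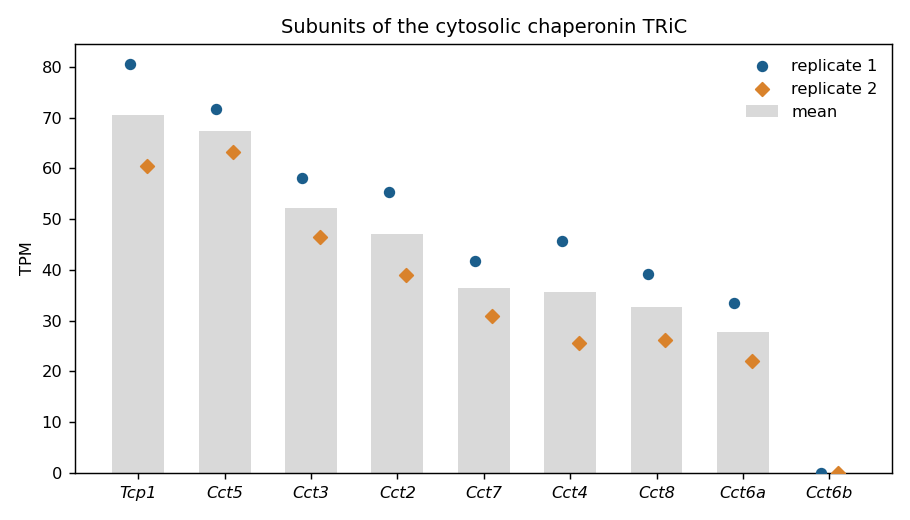
TPM of the TRiC subunit genes in replicate 1 (circles) and replicate 2 (diamonds), with the mean as a grey bar. The 8 ring subunits lie between 22.0 and 80.5 TPM and the testis form Cct6b lies at 0.05 and 0.

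Prefoldin hands actin and tubulin chains to TRiC, and all 6 of its genes were detected, led by Pfdn5 at 32.6 and 26.6 TPM and Pfdn4 at 34.3 and 17.2. Of 4 other chaperonin-related genes, 2 were detected, Pdcl3 at 9.60 and 6.24 TPM and Mkks at 2.91 and 1.38. On protein-coding transcripts alone Pdcl3 stood at 1.59 and 0.72 TPM and was not detected.

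J proteins of class A keep the full domain order of bacterial DnaJ. Dnaja1 stood at 29.8 and 19.1 TPM and Dnaja2 at 16.4 and 11.9, a log2 ratio of 0.86 and 0.68. Dnaja4 reached 1.65 and 0.99 TPM.

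Class B J proteins lack the zinc-binding part of class A. Dnajb6, known for holding back polyglutamine aggregates, led with 53.9 and 33.6 TPM. It exceeded Dnajb1, the heat-inducible Hsp40, at 12.2 and 10.1 TPM, by log2 ratios of 2.13 and 1.72. Of the distinct stretches of Dnajb6, 18.5% also occur in other genes, mostly processed pseudogenes, and its 5 partners with a row held 4.48% and 5.45% of the summed counts.

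By unscaled TPM, Dnajb5 was the one class B member with at least 10 TPM that was higher in replicate 2, at 16.1 and 19.9 TPM. After the scaling between libraries described below, Dnajb5 had a log2 ratio of 0.34 and Dnajb1 one of 0.02. The short processed transcript Dnajb5-205, of 360 bases, went from 10 to 52 counts. Dnajb12, anchored in the reticulum membrane, stood at 11.0 and 8.78 TPM and Dnajb2, a J protein enriched in neurons, at 9.96 and 7.99. Dnajb4, Dnajb9 and Dnajb14 had means of 4.61 to 6.43 TPM, and Dnajb3 stood at 1.17 and 1.27.

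Class C, the most varied, holds 27 members, of which 21 were detected. Dnajc5 encodes the cysteine string protein that protects synaptic vesicle release. It stood at 88.7 and 89.1 TPM, far above the next class C member in both libraries. Its leading transcript, Dnajc5-204, is annotated as a target of nonsense-mediated decay and held 35.6% and 29.6% of the level, a little above the coding Dnajc5-201 with 33.7% and 27.1%. Of the 3728 bases of Dnajc5-204, 98.0% lie within exons of Dnajc5-201. With all counts on Dnajc5-201 the gene would stand at 55.1 and 46.9 TPM.

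Dnajc13, an endosomal J protein, stood at 19.8 and 19.3 TPM, of which a coding transcript of only 398 bases, Dnajc13-204, held 48.2% and 64.8%. With all counts on its 8012-base transcript it would stand at 5.66 and 4.09 TPM. The level of Dnajc13 therefore moved more with this choice than that of Hspa8 did.

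Dnajc8, a spliceosome-associated J protein, stood at 19.0 and 18.4 TPM and Dnajc7, which holds Hsp70 and Hsp90 clients, at 16.2 and 12.3. Dnajc18, a reticulum membrane J protein, stood at 13.3 and 10.7 TPM, Dnajc15 at 12.6 and 8.64, and Dnajc27 at 11.5 and 9.49. The quantification held only 1 transcript of Dnajc15, annotated as a decay target, so the whole level was placed on it. Coding transcripts of Dnajc15 in the newer annotation were not quantified. The 11 class C members not named elsewhere by their level had means between 1.07 TPM for Dnajc28 and 7.63 for Dnajc9.

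Of the 9 members on the endoplasmic reticulum list, which leaves out the membrane J proteins Dnajb12, Dnajb14 and Dnajc18, 8 were detected, with Dnajc25 at 1.42 and 0.99 TPM the exception. Beside Hspa5, Hsp90b1 and Hspa13 these were J proteins. Dnajc10, which reduces disulfides, stood at 17.5 and 12.1 TPM, and Dnajb11, a luminal partner of BiP, at 13.4 and 10.8. Dnajb11 exceeded Dnajc3, at 5.35 and 4.70 TPM, by log2 ratios of 1.31 and 1.18.

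Outside the members, all 11 reticulum folding genes were detected, led by the lectin chaperones Calr at 92.9 and 67.7 TPM and Canx at 58.7 and 41.7. All 7 genes of the unfolded protein response were detected too. Among them Atf4 stood at 34.1 and 25.9 TPM, Xbp1 at 26.5 and 22.0, and Ddit3, the stress-induced CHOP, at 5.77 and 3.26. Xbp1 levels here do not separate the spliced form from the unspliced one.

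Of the 7 strongly heat-inducible members, 6 were detected, with Bag3 below 1 TPM. They spanned a wide range, from Bag3 at a mean of 0.91 TPM to Hsp90aa1 at 126. Only Hsp90aa1 and Dnajb1 reached 10 TPM in both libraries. Of the 5 heat shock factors, 2 were detected. Hsf1, the main sensor of heat, stood at 4.19 and 3.23 TPM and Hsf2, known from brain development, at 6.65 and 4.80. Hsf2 was the higher of the pair in both libraries (Hsf1 over Hsf2, log2 -0.65 and -0.56), short of 2-fold. Hsf3 had 16 and 0 counts, Hsf4 0 and 8, and Hsf5 32 and 9.

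Small heat shock proteins hold unfolding proteins in a state from which Hsp70 can rescue them, and several serve muscle. Of 7 members 3 were detected. Hspb1 (Hsp25) stood at 5.59 and 5.44 TPM and Hspb8, the Bag3 partner, at 4.14 and 3.63, a log2 ratio of 0.42 and 0.57. Hspb6 (Hsp20) stood at 1.25 and 1.14 TPM and was the one muscle-biased member of 4 that was detected. On protein-coding transcripts alone Hspb6 stood at 0 and 0.75 TPM and was not detected. Hspb7 had 0 and 5 counts, and Hspb3 had none. Of the related alpha-crystallins, Cryab stood at 1.54 and 0.80 TPM and Cryaa at 0.24 and 0.09.

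Members listed as testis-biased were almost all low. Of 11, 10 stayed below 1 TPM in both libraries and Dnajb3 was the exception. Dnajb13, known from sperm and cilia, had 46 and 92 counts (0.59 and 0.64 TPM). Dnajb7, Dnajb8, Dnajc5g, Hspb9 and Cct8l1 had no count. None of the 5 germ cell markers was detected, with summed levels of 0.10 and 0.06 TPM, and Prm1, Prm2 and Tnp1 at 0. Dnajc22, which is on neither list, had 13 and 30 counts.

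The isolates were compared member by member. Ratios were taken on counts after TMM scaling, which adjusts for depth and composition, as replicate 2 over replicate 1. Of 79 members with a summed count of at least 20, 4 differed by more than 2-fold (5.06%, background 9.34%). Of these, 2 were higher in replicate 2 (background 5.8%) and 2 in replicate 1 (background 3.54%). The median log2 ratio was -0.02 over members and 0.02 over 15253 protein-coding genes. The median size of the ratio was 0.18 and 0.24, and over detected genes alone 0.18 and 0.19. Among detected genes, however, 2 of 68 members differed by more than 2-fold (2.94%), where 0.996% of all detected protein-coding genes did. Those 2 are Dnajc4 and Dnajc24.

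Dnajc4, a J protein of little-known function, had 158 counts in replicate 1 and 547 in replicate 2, a log2 ratio of 1.19. Its transcript Dnajc4-201 went from 84.3 to 466 counts while Dnajc4-202 had 73.7 and 80.9. On unscaled TPM, 3.10 and 5.16, the log2 ratio was 0.74 and below 2-fold. Dnajc24, which acts in diphthamide synthesis on elongation factor 2, had 268 and 148 counts, a log2 ratio of -1.45. Its processed transcript Dnajc24-202 held 112 and 24.6 of these and the coding Dnajc24-201 held 144 and 107.

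The other two rest on few counts. Hspb2, a muscle-biased small heat shock gene, had 5 and 37 counts (0.12 and 0.47 TPM), a log2 ratio of 2.20 with a counting error of 0.69. Skeletal muscle markers moved the same way, with summed levels of 3.29 and 6.97 TPM, 3 of 6 past 2-fold higher in replicate 2, and Actc1 at 0 in replicate 1. Their part in the Hspb2 difference was not tested. Hspb2 also overlaps Cryab by 1030 bases on the opposite strand, and Cryab had 107 and 103 counts. Hsf5 had 32 and 9 counts, a log2 ratio of -2.36 with a counting error of 0.54. On unscaled TPM, 0.11 and 0.02, it was -2.46.

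**Figure D5:**
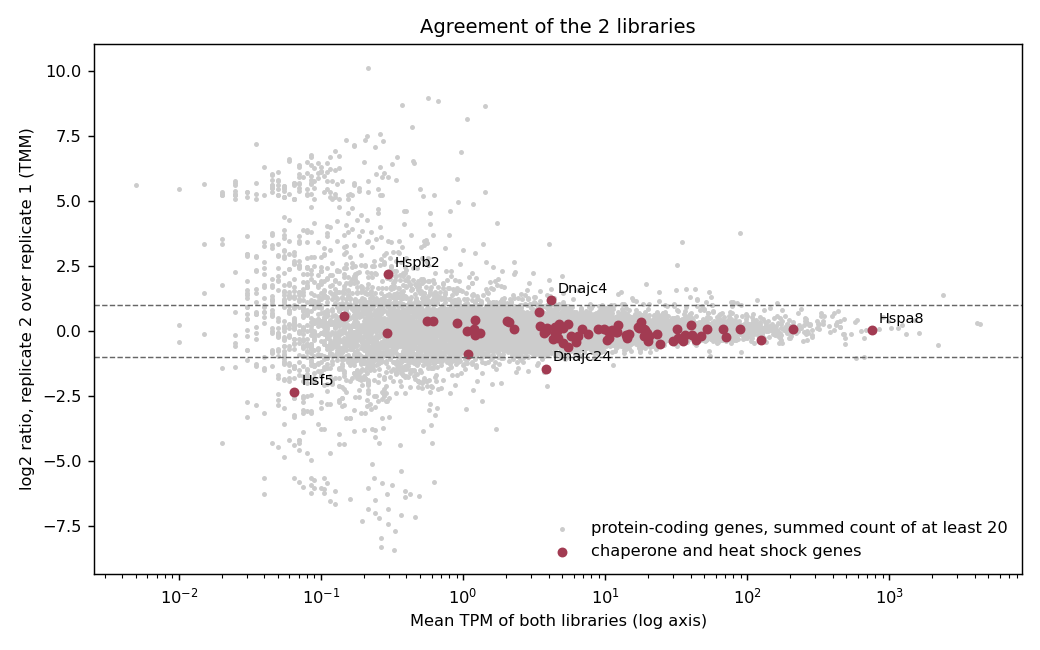
Log2 ratio of replicate 2 over replicate 1 after TMM scaling against mean TPM on a log axis, for 15253 protein-coding genes (grey) and the 79 members among them (red), with 2-fold dashed. The 4 members past 2-fold and Hspa8, at 0.02, are labelled.

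The sign of small ratios depended on the scaling. The median over protein-coding genes was 0.02 after TMM and -0.27 on unscaled TPM, and 25 of the 79 members changed sign between these scalings, all of them short of 2-fold after TMM. After TMM, 8 of the 9 members on the reticulum list had a ratio below 0, with a median of -0.16, where 7353 of 15253 protein-coding genes did. Off that list, Dnajb12 had a ratio of 0.06, Dnajb14 one of 0.0017 and Dnajc18 one of -0.03. Of the 11 other reticulum folding genes 6 were below 0, of the 7 stress response genes 6, and of the 8 mitochondrial members 4. On unscaled TPM, with its lower median, these counts were 9 of 9, 9 of 11, 7 of 7 and 7 of 8. Of the 7 heat-inducible members 2 had a ratio below 0, Hsp90aa1 at -0.37 and Hsph1 at -0.43, while Dnajb1 stood at 0.02 and Hspa1a at 0.07. On spike-in scaling 3 of the 7 were below 0 and on unscaled TPM 6. Hsp90ab1, the constitutive counterpart of Hsp90aa1, had a ratio of 0.05.

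Genes outside the members that were listed as partners of Hsp90 and Hsp70 were all detected. All 11 genes on the Hsp90 co-chaperone list stood above 1 TPM. They were led by the immunophilin Fkbp4 at 38.4 and 30.02 TPM, St13 at 28.2 and 20.05 and Ptges3 (p23) at 25.2 and 20. That list is loose, since St13 (Hip) binds Hsp70 and Trap1, at 10.7 and 6.92 TPM, is itself the Hsp90 of mitochondria. All 8 BAG and exchange genes were detected, led by Bag6, which guards tail-anchored membrane proteins, at 70.4 and 62.3 TPM. Hyou1, the reticulum exchange factor, stood at 16.8 and 11.9 TPM. Of J-domain genes with other names, Gak stood at 15.5 and 13.6 TPM and Sec63 at 5.28 and 3.10.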

How the data were processed

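Total RNA from 2 isolates of newborn midbrain was measured. The authors' quantification used mm10 and GENCODE M4 on transcriptome alignments, per the deposited notes, and the programs behind it are not named in those notes or the labels. Deposited estimated counts can be fractional, since a read that fits several features is divided among them. The authors' TPM divide counts by effective length, on a common total that includes the spike-ins, and their FPKM and posterior mean TPM served as alternatives. The deposited percent of a gene's TPM held by each transcript was used as given. The deposited bounds of the TPM signal were read but support no statement.

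Symbols, types and coordinates came from GENCODE M21. The members and lists were chosen with earlier results of these data known. No groups were tested, so replicates give only a spread over 2 samples. Pairs used a pseudocount of 0.1 TPM. Ratios between libraries used edgeR 4.0.16 (TMM, prior count 0.5) on counts rounded to whole numbers, checked on simulated data, with DESeq2 1.42.0 size factors and 24 spike-ins as alternatives. As a check for a library deposited in duplicate, counts were compared over all genes, and a chi-square of 51.4 per degree of freedom left the isolates as 2 samples. Shared sequence was measured as exact 101-base stretches between annotated transcripts.

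Genes were named by rule: members with a mean of at least 10 TPM, every member of groups of 4 or fewer, the 6 highest of larger groups, members below 1 TPM in both libraries, both genes of each pair, those past 2-fold between libraries, and up to 4 genes of each other list. Hspa2, Dnajb3, Dnajb4, Dnajb9, Dnajb14, Dnajc9, Dnajc21, Dnajc25 and Dnajc28 were named after their values were seen. Hspa14 and protein sequences were not analysed here.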

Additional observations from a re-analysis of the deposited data

How the results depend on the processing

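With 5 TPM as the detection level 45 members passed instead of 68, while the other thresholds, units and rescaling tried gave 65 to 76. The members' share of protein-coding TPM was 0.849% on protein-coding transcripts and 0.921% as a share of counts. At 1.5-fold 16 pairs were called instead of 10, and on protein-coding transcripts 8 of the 19 pairs that could be computed, with Hspa8 over Hsp90ab1 lost and Hspa4 over Hspa4l counted although the main Hspa4l transcript has no type. Of single levels, 16 of 68 moved by more than 1 SD on protein-coding transcripts. On unscaled TPM without a pseudocount, an alternative chosen after seeing the data, 5 members passed 2-fold between the libraries, with Dnajc4 lost (0.74) and Dnajc1 (-1.20) and Dnajc21 (-1.02) gained. A pseudocount of 0.1 gave 3, with Hsf5 at -0.81. Members past 2-fold numbered 9 with no minimum count and 2 with a minimum of 100, against 4. The 8-base promoter element lay in 22 members, the 13-base one in 4. With 1 library left out, 68 to 72 members were detected, the share was 1.04% to 1.07%, and 11 to 12 pairs were called. Of the 79 ratios between libraries, 25 changed sign on unscaled TPM and 6 on spike-ins, none of them past 2-fold after TMM. Called pairs kept their direction. No paired analysis was possible because there is 1 group. Protein motifs were not run.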
